A study of Mus musculus with 6 samples.

Results

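The genes described here are 8 transcripts tied to the response of muscle to loss of its nerve: Hdac4, Hdac9, Dach2, Runx1, Gadd45a, Gadd45b, Gadd45g and Ncam1. They were taken by symbol from a table of 54393 mouse genes, all 8 were found, and all 8 were among the 16031 genes tested (those whose mean reached 10 normalized counts). The samples were tibialis anterior muscles (a fast muscle at the front of the lower leg) of adult mice, 3 from wild-type (WT) mice with sample titles that begin with C57 and 3 from mice labelled Dock3 KO, a knockout of the Rac activator Dock3. The titles of the Dock3 KO samples name no strain, and a difference of strain between the groups was not tested. How the Dock3 allele was made, the sex and exact age of the mice, and whether each muscle came from its own mouse are not given in the sources used here, so p-values measure the spread between these samples only. RNA was depleted of ribosomal RNA and sequenced from stranded libraries. The 8 were listed as genes of the denervation response with the values of these same samples in view: Gadd45a and Ncam1, after which the list was named, were chosen by their lower normalized counts in Dock3 KO than in WT. The genotype difference of all 8 genes is therefore given as a description, without a p-value, and the counts of calls among them support nothing. Where 6 values are given, the first 3 are WT replicates 1, 3 and 4 and the last 3 are Dock3 KO replicates 1, 2 and 3, in that order.

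A motor nerve keeps a muscle fibre electrically active, and activity silences a set of genes in the nuclei away from the synapse. When activity is lost, the class IIa histone deacetylases HDAC4 and HDAC5 gather in the nuclei and repress Dach2, whose product is a corepressor of the Myog promoter, and myogenin then turns on acetylcholine receptor and atrophy genes. HDAC4 also acts upstream of Gadd45a, a small nuclear stress protein whose forced expression shrinks fibres, while RUNX1 and the adhesion molecule NCAM1 are classical markers of denervated fibres. Hdac4, Runx1, Gadd45a and Ncam1 are known to rise after denervation. Dach2 and Hdac9 are known instead to fall, so the 8 genes are not a list with 1 direction in denervated muscle.

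Gadd45a, Gadd45b and Gadd45g are paralogs with small compact genes, and their promoters are shown because their values behaved differently in these muscles. RefSeq promoter windows of 300 bases (250 before the transcript start and 50 after it, GRCm38.p6) were found for 7 of the 8 members, in 10 windows. The stretches below run from position -250 to position -51 before the RefSeq start. Capitals mark every match, on either strand, to the OCT octamer ATTTGCAT, the CCAAT box, the GC box GGGCGG, the E-box CANNTG, the AP-1 site TGANTCA, the CRE TGACGTCA, the RUNX site TGTGGT, the TATA motif TATAAA or the MEF2 motif.
Gadd45a, chr6:67037458-67037657, minus strand: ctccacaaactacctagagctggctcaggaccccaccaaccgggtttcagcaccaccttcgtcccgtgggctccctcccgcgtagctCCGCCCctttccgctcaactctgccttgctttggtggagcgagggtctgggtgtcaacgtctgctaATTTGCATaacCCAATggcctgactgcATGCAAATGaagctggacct
Gadd45b, chr10:80929841-80930040, plus strand: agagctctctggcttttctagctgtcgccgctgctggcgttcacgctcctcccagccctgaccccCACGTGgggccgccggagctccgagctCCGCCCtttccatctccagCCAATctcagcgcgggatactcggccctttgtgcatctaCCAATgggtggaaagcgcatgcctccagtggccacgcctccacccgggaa
Gadd45g, chr13:51846425-51846624, plus strand: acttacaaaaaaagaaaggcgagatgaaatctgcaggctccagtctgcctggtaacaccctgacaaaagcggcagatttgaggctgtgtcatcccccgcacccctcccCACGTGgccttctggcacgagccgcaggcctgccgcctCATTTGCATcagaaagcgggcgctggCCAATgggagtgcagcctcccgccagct

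The Gadd45a window held the octamer at -97 to -90 and again, on the other strand, at -70 to -63, with a CCAAT box between them at -86 to -82. The second octamer overlaps an E-box match at -67 to -62. The Gadd45g window held an octamer at -103 to -96, which overlaps an E-box match at -104 to -99, and a CCAAT box at -78 to -74. The Gadd45b window held CCAAT boxes at -139 to -135 and -100 to -96 and no match to the octamer letters. Beyond the printed stretches, a TATA motif lay at -46 to -41 in the Gadd45b window and at -27 to -22 in the Gadd45g window. The Gadd45a window held no TATA motif. An E-box match of the Gadd45g window at -55 to -50 crosses the end of the printed stretch and is not in capitals. Among all 32851 RefSeq windows of the same length, 1.74% held the octamer, 37.4% a CCAAT box, 35.7% a GC box, 72.3% an E-box, 7.81% an AP-1 site, 1.79% a CRE, 16.8% a RUNX site, 13.6% a TATA motif and 3.19% a MEF2 motif. A match is a match of letters and says nothing of binding.

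The libraries were checked before the genes were read. The normalized counts summed to between 23520223 and 33393950 per sample, which, from the smallest steps in the values, stand for approximately 21700000 to 32500000 reads. Dock3 stood at 118 to 169 normalized counts in the WT samples, and the Dock3 KO samples held 22.4, 1.78 and 1.54, so replicate 1 kept more Dock3 signal than the other two. The muscle fibre markers Acta1 and Ckm were at 189939 normalized counts or above in every sample. A pair of transcripts, Gm42418 and Lars2, took 17.9% and 20.3% of the summed values of Dock3 KO replicates 1 and 2, against 3.00% to 3.64% in the other 4 samples. Dock3 KO replicate 3 is thus the knockout library that resembles WT in this respect.

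Gadd45a (ENSMUSG00000036390, chromosome 6, 67035096 to 67037457, minus strand) encodes the family member linked most closely to fibre atrophy. The WT muscles held 389, 561 and 779 normalized counts and the Dock3 KO muscles 220, 260 and 204. Every Dock3 KO sample lay below every WT sample, and the WT samples were more spread out than the Dock3 KO samples. The WT mean was 576 ± 196 and the Dock3 KO mean 228 ± 28.9 (SD, n = 3 each), so that Dock3 KO stood at 39.6% of WT. On the log2(normalized count + 1) scale, used for every log2 difference here, Dock3 KO differed from WT by -1.28 (standard error 0.24).

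The annotated gene E230016M11Rik lies over Gadd45a on the opposite strand. Its WT values were 37.4, 24.7 and 33.2 normalized counts, and its Dock3 KO values 19.4, 11.7 and 10.1. The order of the groups was thus the same for both genes at this place. Whether the counting used strand is not given in the sources used here, so reads of the overlapping stretch could have gone to either gene.

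Gadd45b (ENSMUSG00000015312, chromosome 10, 80930073 to 80932204, plus strand) encodes a sister protein that is quickly induced by stress and by NF-kappaB. WT samples had 452, 395 and 354 normalized counts, whereas Dock3 KO samples had 626, 162 and 162. Dock3 KO replicate 1 was the highest of all 6 samples and the other Dock3 KO samples were the lowest, so the groups overlapped. The Dock3 KO mean of 316 ± 268 had an SD close to the mean itself, against 400.5 ± 49.4 in WT (SD, n = 3 each). The log2 difference of -0.65 (standard error 0.44) became -1.30 without Dock3 KO replicate 1 and -0.32 without Dock3 KO replicate 2 or without replicate 3.

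Gadd45g (ENSMUSG00000021453, chromosome 13, 51846678 to 51848468, plus strand) encodes the third of these proteins, known in cell cycle arrest and differentiation. Its normalized counts were 416, 594 and 699 in the WT group, and 423, 904 and 527 in the Dock3 KO group. Dock3 KO replicate 2 was the highest of all 6 samples, replicate 1 was near the lowest WT sample, and the groups overlapped. The WT mean of 570 ± 143 and the Dock3 KO mean of 618 ± 253 (SD, n = 3 each) gave a log2 difference of 0.07 (standard error 0.28).

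Ratios within a library do not depend on a scaling by 1 factor per library. Whether the deposited values were scaled in that way alone is not given in the sources used here. With this limit, the makeup of the family was compared per kilobase of the longest coding transcript (1223, 1284 and 1071 bases for Gadd45a, Gadd45b and Gadd45g). Gadd45a made up 30.0%, 34.7% and 40.7% of the summed Gadd45 level per kilobase in the WT muscles. In the Dock3 KO muscles its share was 16.9%, 18.0% and 21.3%. The mean shares were 35.1% ± 5.34 and 18.7% ± 2.25 (SD, n = 3 each), without overlap, and since they rest on the values by which Gadd45a was chosen, they are a description too. What filled the rest differed between the Dock3 KO samples: Gadd45b was the largest part in replicate 1, at 45.9%, and Gadd45g was the largest in replicates 2 and 3, at 71.4% and 62.7%. The summed level of the 3 genes was 1315 ± 254 normalized counts per kilobase for WT against 1010 ± 204 for Dock3 KO (SD, n = 3 each), with overlapping groups.

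**Figure D1:**
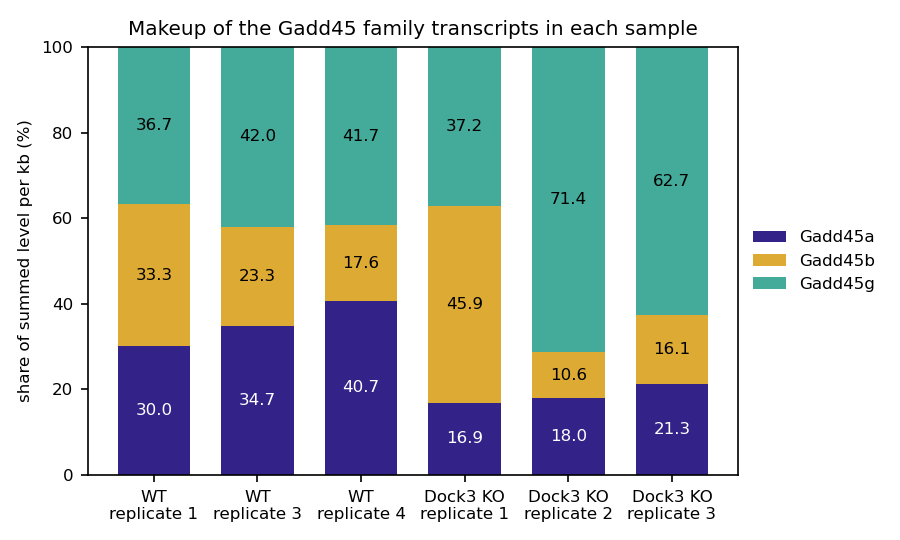
Share of Gadd45a, Gadd45b and Gadd45g in their summed level per kilobase (percent, vertical axis) in each of the 6 samples (horizontal axis), drawn as stacked bars that add up to the whole. Gadd45a takes 30.0% to 40.7% in the WT samples and 16.9% to 21.3% in the Dock3 KO samples, while the division between Gadd45b and Gadd45g varies among the Dock3 KO samples.

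Ncam1 (ENSMUSG00000039542, chromosome 9, 49502136 to 49798925, minus strand) encodes the neural cell adhesion molecule, which in adult muscle is found at the synapse and on satellite cells and Schwann cells, and which spreads over the fibre after denervation. The WT muscles held 209.9, 209 and 144 normalized counts and the Dock3 KO muscles 93.7, 78.4 and 64.0. Every Dock3 KO sample lay below every WT sample. The means were 188 ± 37.8 and 78.7 ± 14.9 (SD, n = 3 each), so that Dock3 KO stood at 41.9% of WT. The log2 difference was -1.24 (standard error 0.24). The gene that overlaps Ncam1 on the other strand, Gm11149, was listed at 0 in 5 samples and at 1.52 in Dock3 KO replicate 2.

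Since Ncam1 is also made by satellite cells and Schwann cells, the marker lists of these cells are given beside it. In bulk muscle, fewer cells of a type and less RNA per cell cannot be told apart. The summed level of 5 satellite cell markers was 613 to 692 normalized counts in WT and 525 to 591 in Dock3 KO, at 85.9% of the WT mean, with no overlap (exact two-sided permutation p = 0.1, the smallest that 3 against 3 samples allow). Among them Pax7, the defining transcription factor, had 71.9, 72.0 and 67.6 normalized counts in WT samples, with 71.0, 19.4 and 24.6 in Dock3 KO samples. The Dock3 KO means of Pax7, Myf5 and Cdh15 were 54.4%, 75.4% and 79.6% of WT, and those of Chodl and Calcr were 105% and 180.4%. No satellite cell marker was at 0 in every sample, and 1 of 5, Cdh15, did not overlap between the groups, beside 16.2% of all genes tested. The summed level of 9 Schwann cell markers was 891 to 1243 in WT and 858 to 1115 in Dock3 KO, with overlapping groups (exact two-sided permutation p = 0.9). The part of these cells in the Ncam1 difference was not tested.

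Hdac4 (ENSMUSG00000026313, chromosome 1, 91928779 to 92195699, minus strand) encodes the activity-sensitive repressor that acts upstream of Dach2 and Gadd45a. Normalized counts were 1740, 1289 and 1290.0 for the WT samples, and 1399, 2007 and 1715 for the Dock3 KO samples. The groups overlapped, with a WT mean of 1440 ± 260.4 and a Dock3 KO mean of 1707 ± 304 (SD, n = 3 each). The log2 difference was 0.24 (standard error 0.17). HDAC4 acts largely through its place in the cell, which RNA does not show.

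Hdac9 (ENSMUSG00000004698, chromosome 12, 34047580 to 34917095, minus strand) encodes a relative whose short product represses MEF2 targets in innervated muscle. The WT values of 158, 220.4 and 215 normalized counts overlapped the Dock3 KO values of 210.2, 219 and 171, and the log2 difference was 0.02 (standard error 0.20). Dach2 (ENSMUSG00000025592, chromosome X, 113297510 to 113836386, plus strand) encodes the corepressor between HDAC4 and Myog. WT samples had 79.8, 96.9 and 79.9 normalized counts, whereas Dock3 KO samples had 66.7, 85.4 and 129.8. The Dock3 KO samples lay on both sides of the WT range, and the log2 difference was 0.09 (standard error 0.28).

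Runx1 (ENSMUSG00000022952, chromosome 16, 92601466 to 92826149, minus strand) encodes a transcription factor that limits the wasting of denervated fibres. The WT muscles held 249.8, 247 and 259 normalized counts and the Dock3 KO muscles 270.0, 215 and 285. The narrow WT range lay inside the Dock3 KO range, and the log2 difference was 0.02 (standard error 0.17). Among the 8 genes Runx1 had the smallest SD relative to its mean in WT, at 252 ± 6.24 (SD, n = 3).

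**Figure D2:**
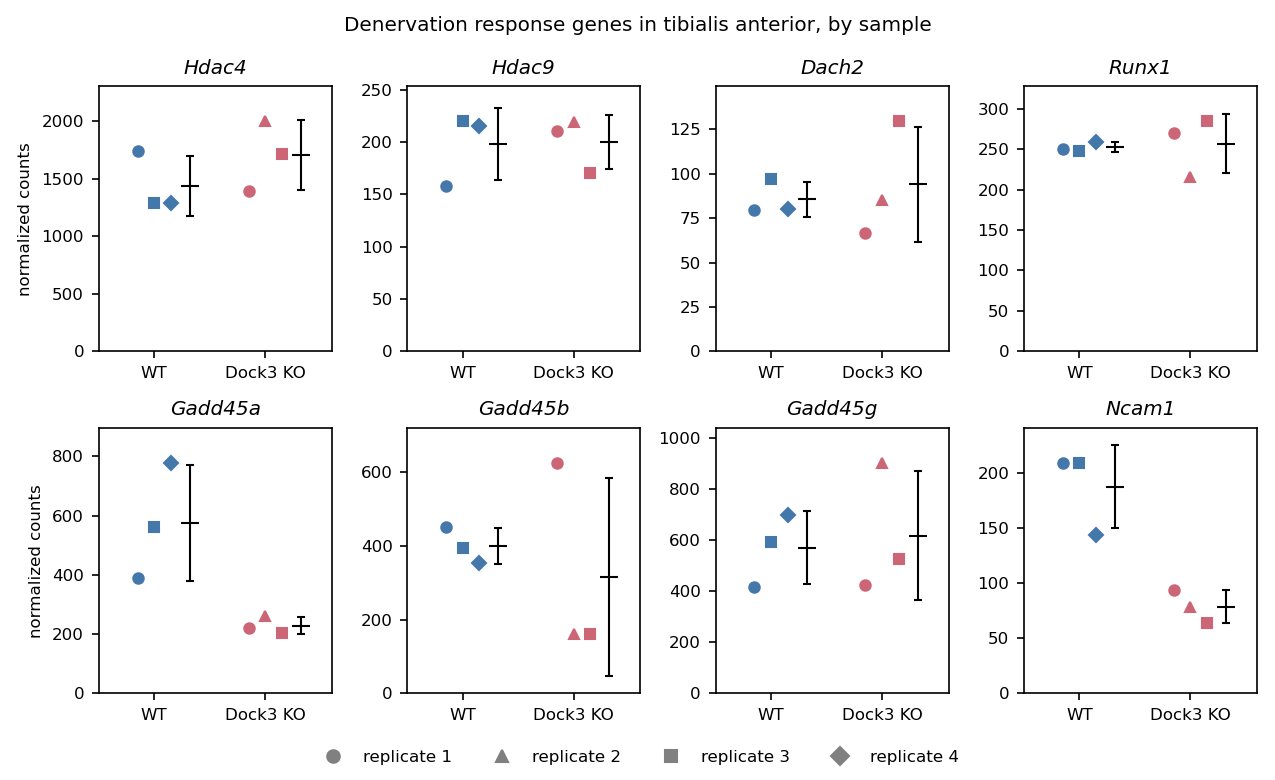
Normalized counts (vertical axes, each from 0) of the 8 genes in the 3 WT and the 3 Dock3 KO samples (horizontal axes); symbols give the replicate number and black bars the mean and SD of each group. Gadd45a and Ncam1 separate the groups, and the other 6 genes overlap.

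Set side by side, 2 of the 8 members, Gadd45a and Ncam1, did not overlap between the groups, both lower in Dock3 KO, and the other 6 overlapped. Of all genes tested, 8.65% were lower in Dock3 KO without overlap and 7.6% were higher. The same 2 members had an adjusted p under 0.05 in the limma fit over all genes, beside 1.03% of all genes tested for calls in either direction and 0.586% for calls in that direction. Both genes were chosen on this difference, so nothing is read from either count or from their calls under other settings. The log2 differences of the 6 overlapping members ranged from -0.65 for Gadd45b to 0.24 for Hdac4, and the median of all 8 was 0.02, beside -0.01 over all genes tested.

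The 2 calls changed with the samples and settings, which is given as a description only, since both genes were chosen on their difference. Both held under 5 of 18 alternatives, 1 member was called under 5, and none under 8. Leaving out WT replicate 1 left Gadd45a alone, leaving out Dock3 KO replicate 1 left Gadd45b alone, and leaving out any one of the other 4 samples left none. The size of the difference, whose sign the choice of these genes fixes, ranged from -1.56 to -1.04 for Gadd45a and from -1.54 to -1.10 for Ncam1 on the log2 scale. With replicate 3 as the only Dock3 KO sample, the differences were -1.44 for Gadd45a and -1.52 for Ncam1.

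**Figure D3:**
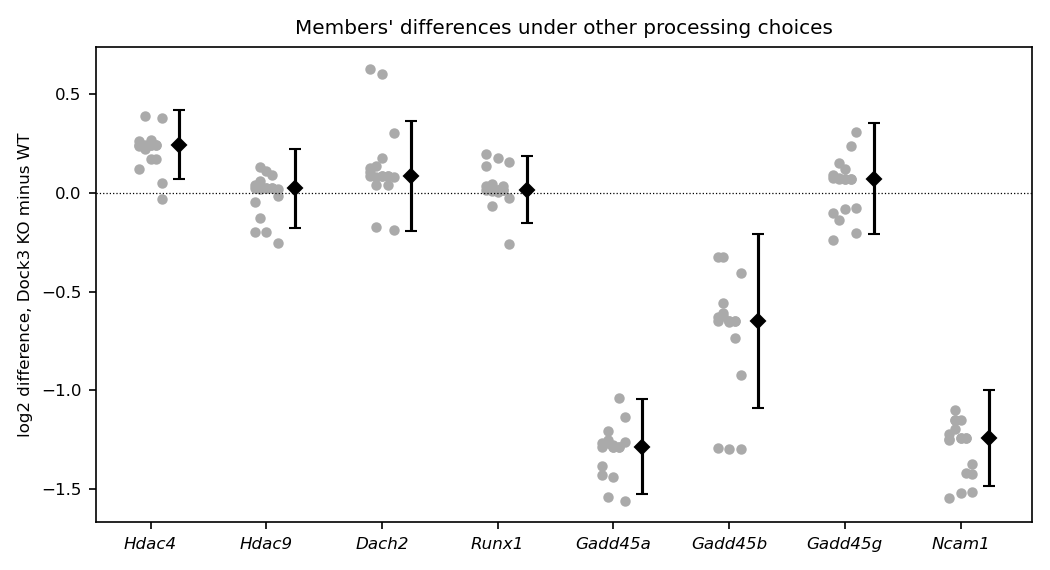
Log2 difference between Dock3 KO and WT (vertical axis) of the 8 genes (horizontal axis); black diamonds give the value of the text with its standard error and grey points the 18 other settings and sample choices. Gadd45a and Ncam1 lie below 0, the direction for which they were chosen, Gadd45b spreads from -1.30 to -0.32, and the points of the other 5 genes reach both sides of 0.

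Scaling bears on the genes near 0. Setting all samples to the same summed value, which includes Gm42418 and Lars2, moved the median of all genes to -0.28. Hdac4, Hdac9, Dach2, Runx1 and Gadd45g then stood at -0.03, -0.25, -0.19, -0.26 and -0.20. Relative to that median they stood at 0.25, 0.03, 0.09, 0.02 and 0.08, close to their unscaled values, and Gadd45a and Ncam1 at -1.28 and -1.23.

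Levels per kilobase of the longest coding transcript put the members in order, although the transcript in use in muscle may be shorter. In WT the order was Gadd45g at 532 ± 134, Gadd45a at 471 ± 160, Gadd45b at 312 ± 38.4, Hdac4 at 178 ± 32.1, Runx1 at 43.0 ± 1.07, Ncam1 at 28.6 ± 5.75, Hdac9 at 24.9 ± 4.34 and Dach2 at 16.6 ± 1.91 normalized counts per kilobase (SD, n = 3 each). The sample values of Gadd45g overlapped those of Gadd45a, as did those of Gadd45a and Gadd45b and those of Ncam1 and Hdac9. In Dock3 KO, Gadd45a stood at 186 ± 23.7 normalized counts per kilobase, level with Hdac4 at 211 ± 37.6, and Ncam1 at 12.0 ± 2.27 (SD, n = 3 each). Ncam1 was thus the lowest of the 8 genes in Dock3 KO, next to Dach2 at 18.2 ± 6.29, whose sample values overlapped those of Ncam1.

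The transcripts most like Gadd45a and Ncam1 over the 6 samples are given as a description, since 73 and 66 of 16030 other genes had a Pearson r over 0.95 and the genotypes, libraries and scaling are shared by all. For Gadd45a they were Bmp6 (r = 0.9956), a secreted growth factor, Eif4ebp1 (r = 0.9936), a brake on translation initiation, and Nprl2 (r = 0.9926), a subunit of a complex that restrains mTORC1. Bmp6 had 225, 259 and 310 normalized counts in WT samples, with 174, 185 and 176 in Dock3 KO samples. For Ncam1 they were the long non-coding RNA 9830004L10Rik (r = 0.9927), the protocadherin Pcdhb18 (r = 0.9903) and the scavenger receptor Stab2 (r = 0.9884). Stab2 had 224, 209 and 143 in WT samples, with 103, 88.4 and 85.4 in Dock3 KO samples, so it shared the lower WT replicate 4 with Ncam1.

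Genes of the same pathways were counted in 6 lists of 82 genes, of which 75 were tested. By limma's p adjusted over all genes, 2 were higher (Sik1 and, with an uncertain value, Tdg) and 1 lower (Sln) in Dock3 KO, beside 0.443% and 0.586% of all genes tested. The median log2 difference of the 75 genes was -0.10, beside -0.01 for all genes.

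Among 19 partners and relatives of the class IIa histone deacetylases, 1 was called higher and none lower by limma. Without overlap between the groups, 2 were higher and 1 lower, beside 7.6% and 8.65% of all genes tested. Sik1 (chromosome 17, 31844250 to 31855804, minus strand) encodes a kinase that phosphorylates class IIa histone deacetylases and sends them out of the nucleus. WT samples had 362, 405 and 440 normalized counts, whereas Dock3 KO samples had 798, 1139 and 719. All Dock3 KO samples lay above all WT samples, with means of 402 ± 38.8 and 885 ± 223 (SD, n = 3 each). The log2 difference was 1.11 (standard error 0.19, limma adjusted p 0.0205). Over 18 alternatives limma's adjusted p lay between 0.00536 and 0.487 and was over the threshold in 9, among them the samples without WT replicate 1, 3 or 4 (0.0785, 0.0856 and 0.0580) or without Dock3 KO replicate 2 (0.0573) and rescaling to the same total (0.0786).

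Camk2b, a calcium-dependent kinase that signals to HDAC4, stood next by p on this list. The WT values of 1643, 1525 and 1612 normalized counts lay below the Dock3 KO values of 2443, 1953 and 2299 (log2 difference 0.48, limma adjusted p 0.163). The median of the list was -0.03, with 7 genes above 0 and 12 below. Mef2a, Mef2c and Mef2d, the transcription factors that HDAC4 represses, had log2 differences of 0.08, 0.26 and 0.09, and Hdac5 stood at -0.04, all without a call.

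Of 16 tested inducers and partners of the GADD45 proteins, 1 was called higher and none lower by limma. Without overlap between the groups, 2 were higher and 1 lower, beside 7.6% and 8.65% of all genes tested. Tdg (chromosome 10, 82629828 to 82650799, plus strand) encodes the thymine DNA glycosylase that works with GADD45A in DNA demethylation. Normalized counts were 186, 215 and 175 for the WT samples, and 413, 356 and 436 for the Dock3 KO samples. The log2 difference was 1.06 (standard error 0.17, limma adjusted p 0.0138). Its value is uncertain, because Tdg has 4 near-identical pseudogene copies in the table, such as Gm9855 with 99.2% identity over 1194 bases. Gm9855 itself went the other way, at 102 to 107 normalized counts in WT and 0 to 3.02 in Dock3 KO, as did Tdg-ps, at 38.4 to 62.7 and 0 to 1.49. Summed over all 5 genes the groups lay closer together, at a mean of 345 for WT and 404 for Dock3 KO, without overlap. Limma's adjusted p lay between 0.00731 and 0.198 over 18 alternatives and was over the threshold in 7. These were the samples without WT replicate 4 (0.0696) or Dock3 KO replicate 3 (0.0728), equal totals (0.161), no trend of the prior variance (0.0713), the replicate block (0.0992), the Gm42418 and Lars2 covariate (0.154) and replicate 3 as the only Dock3 KO sample (0.198).

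Chac1, which degrades glutathione and is induced by ATF4, stood next by p. The WT values of 442, 525 and 524 normalized counts lay below the Dock3 KO values of 641, 1912 and 978 (log2 difference 1.10, limma adjusted p 0.210). Without Dock3 KO replicate 1 its limma adjusted p was 0.0408, the lowest over 18 alternatives that reached up to 0.785. Atf4 itself, an inducer of Gadd45a, had a log2 difference of 0.17, and Cdkn1a, a cell cycle inhibitor that accompanies Gadd45a in atrophy, had -0.17, neither with a call.

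None of 3 tested RUNX1 relatives and partners was called by limma, and none had an unadjusted p under 0.05, beside 10.5% of all genes tested. Cbfb, the partner that RUNX proteins need for DNA binding, had a log2 difference of 0.05. Runx1t1 and Runx2 had -0.13 and 0.10, with adjusted p-values of 0.893 and 0.9495 (limma), and their signs turned under some alternatives.

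None of 9 tested relatives and partners of NCAM1 was called by limma, and 1 had an unadjusted p under 0.05, a share close to the 10.5% over all genes. That was Nrcam, an adhesion molecule of the L1 family, with 71.7, 21.4 and 25.7 normalized counts in WT samples against 13.7, 2.49 and 10.3 in Dock3 KO samples (limma adjusted p 0.275). Cdh15, the cadherin of satellite cells and myoblasts, had 324, 316 and 327 in WT samples against 288, 242 and 240 in Dock3 KO samples (limma adjusted p 0.5005). The median of the list was -0.19, with 2 genes above 0 and 7 below. St8sia4, which adds polysialic acid to NCAM1, had a log2 difference of -0.19.

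Acetylcholine receptor subunits and the synaptic apparatus are the best known targets of the denervation pathway. None of 12 tested genes was called by limma, and 6 had an unadjusted p under 0.05, beside 10.5% of all genes tested. All 6 were lower in Dock3 KO, beside 5.7% of all genes with such a p and a lower value, and 5 of the 12 were lower without overlap, beside 8.65% of all genes. The median log2 difference was -0.45, beside -0.01 for all genes, with 2 genes above 0 and 10 below.

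Chrna1, the alpha subunit of the receptor, had 256, 308 and 326 normalized counts in WT samples against 146, 174 and 224 in Dock3 KO samples (log2 difference -0.72, limma adjusted p 0.192). Ache, the acetylcholine esterase, had 894, 660.0 and 618 in WT samples against 362, 481 and 519 in Dock3 KO samples (log2 difference -0.67, limma adjusted p 0.201). Named after their values were seen, Chrnd, Chrng and Musk were also lower without overlap. Chrng, the fetal subunit that returns after denervation, had 8.58, 7.26 and 63.6 in WT samples against 0, 0 and 6.19 in Dock3 KO samples, so WT replicate 4 holds most of its signal. Myog had 47.0, 60.8 and 100.2 in WT samples against 31.8, 59.8 and 61.3 in Dock3 KO samples, and the groups overlapped.

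**Figure D4:**
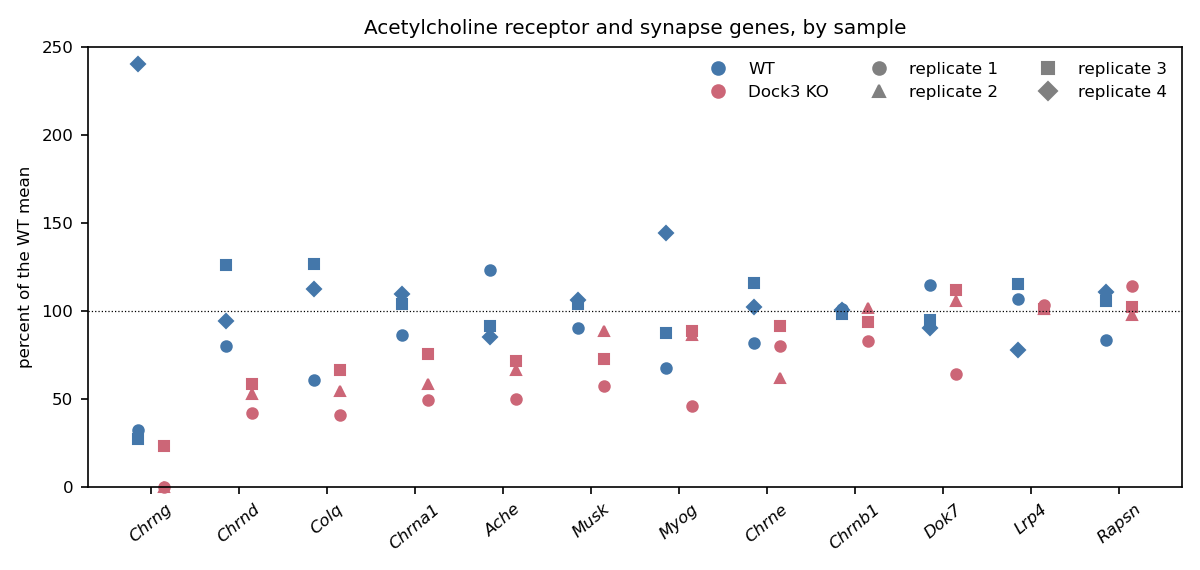
Values of 12 acetylcholine receptor and synapse genes (horizontal axis) in each sample as percent of the WT mean (vertical axis); symbols give the replicate number. The Dock3 KO samples of Chrng, Chrnd, Chrna1, Ache and Musk all lie below their WT samples, those of Lrp4 lie among them, and those of Chrnb1 and Rapsn overlap them.

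Of 16 other genes known to change in denervated or wasting muscle, 1 was called lower and none higher by limma. Without overlap between the groups, 3 were higher and 1 lower, beside 7.6% and 8.65% of all genes tested. An unadjusted p under 0.05 was found for 4 (limma), beside 10.5% of all genes tested. Sln (chromosome 9, 53850164 to 53854560, plus strand) encodes sarcolipin, a small inhibitor of the calcium pump of the sarcoplasmic reticulum. The WT muscles held 202, 297 and 409 normalized counts and the Dock3 KO muscles 50.4, 35.0 and 36.4. Group means were 302 ± 104 and 40.6 ± 8.498 (SD, n = 3 each), so that Dock3 KO stood at 13.4% of WT. The log2 difference was -2.83 (standard error 0.29, limma adjusted p 0.000940). The call held in 17 of 18 alternatives, and with replicate 3 as the only Dock3 KO sample the adjusted p was 0.0534 (limma), in a range of 3.48e-05 to 0.0534.

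Ankrd1, a stretch-responsive ankyrin repeat protein, had 182, 183 and 285 normalized counts in WT samples against 335, 343 and 847 in Dock3 KO samples, with no overlap (log2 difference 1.11, limma adjusted p 0.243). It was called with the replicate block (limma adjusted p 0.0476) and with the Gm42418 and Lars2 covariate (0.0282), in a range of 0.0282 to 0.532 over 18 alternatives. The ubiquitin ligases Trim63 and Fbxo32, which mark muscle wasting, had log2 differences of -0.21 and 0.08 without a call. The median of the list was 0.09, with 10 genes above 0 and 6 below.

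**Figure D5:**
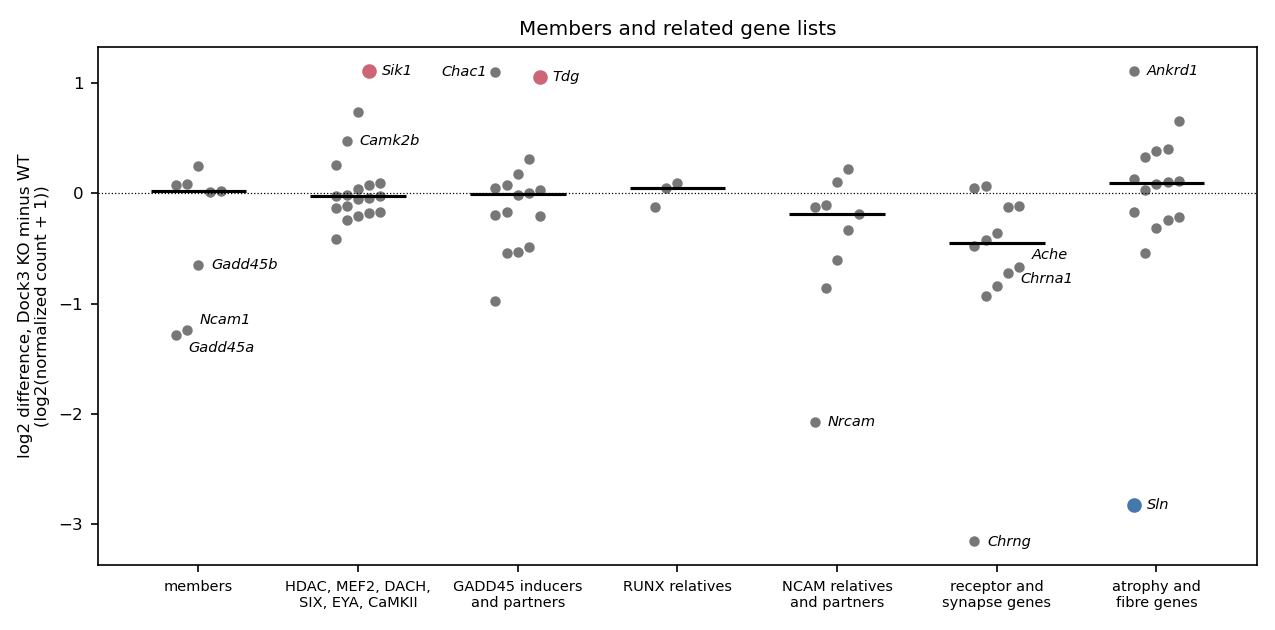
Log2 difference between Dock3 KO and WT on the log2(normalized count + 1) scale (vertical axis) for the 8 members and the tested genes of 6 related lists (horizontal axis); each point is a gene, bars are medians, and larger coloured points of the related lists are genes with an adjusted p under 0.05. Sik1 and Tdg are called higher and Sln lower, and most receptor and synapse genes lie below 0.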

How the data were processed

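The deposited table gives normalized counts, a signal per gene that is neither whole nor of a fixed sum; the submitters' processing notes name Trim Galore 0.4.5, Salmon 0.12.0, DESeq2 1.22.1 and R 3.5.3 with mm10 and GRCm38, without saying which step made the values. All 54393 gene identifiers matched GENCODE M21 (GRCm38), the source of symbols and coordinates; for Ddit3, an identifier at 0 in all samples was left out. Only 15.2% to 25.8% of a sample's low values were whole multiples (within 0.01) of its smallest frequent step, so count tests were not run and depth is an estimate.

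Values were taken as log2(normalized count + 1), genes with a mean of at least 10 were kept, and the 6 samples were fitted by genotype in limma 3.58.1 (R 4.3.3; eBayes with a trended prior variance) and Benjamini-Hochberg adjustment at 0.05. On data simulated for this comparison over 15858 genes, 93 of 100 genes changed 2-fold and 100 of 100 changed 4-fold were called, with 5 false calls. The simulation gave all genes the same setting of spread between replicates, changed no gene of low level and held no differences between libraries. These shares therefore do not carry over to the real samples. Near-identical copies (at least 95% identity over 50% of the shorter transcript and 100 bases) were searched with blastn 2.17.0; none was found for a member.

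The members and all lists were chosen with earlier results of these data known. Named besides the 8 members are Dock3, called genes of each related list with the next by p up to 2 per list, the 3 genes most like Gadd45a and Ncam1, and marker genes; other named related genes were chosen after their values were seen. Alternatives were pseudocounts of 0.1 and 10, other filters, scalings and variance models, a replicate block, a covariate of Gm42418 and Lars2, and samples left out.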

Additional observations from a re-analysis of the deposited data

How the results depend on the processing

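The 165 genes called over all genes (71 higher, 94 lower) became 104 without a trend of the prior variance, 61 with the Gm42418 and Lars2 covariate and 56 with replicate 3 as the only Dock3 KO sample, a choice added after seeing the data that assumes this sample varies like WT. Leaving out each sample in turn gave 100 to 159 genes, the lowest when WT replicate 4 was left out, with 102 for Dock3 KO replicate 2. With equal totals 177 genes were called, 23.2% of them higher against 43.0%. The 3 related genes called became 1 with the same total, 1 without the trend, 0 with replicate 3 as the only Dock3 KO sample, and 1 to 5 on leaving out each sample (1 when WT replicate 4 was left out, 5 for Dock3 KO replicate 1). Nothing in the labels pairs the samples by replicate number. Deviations of same-numbered samples correlated at 0.0649 for replicate 1 and 0.00663 for replicate 3 over genes, which cannot show that they shared no batch. With the replicate block, which has 1 residual degree of freedom, 127 genes and 2 related genes (Ankrd1 and Sln) were called, and Gadd45a and Ncam1 were not. Directions turned for Runx2 (-0.17 with the same total, -0.052 with the replicate block, -0.26 with the covariate, -0.22 with replicate 3 as the only Dock3 KO sample), for Runx1t1 (0.045 and 0.041 in the last pair of these) and, with the same total, for the summed muscle fibre markers (0.07 to -0.19 on the log2 scale); the cause was not tested beyond the shift of all genes given above for that scaling. Of 144 alternative values of the members, 136 moved by less than 1 SD between replicates. That SD is each gene's own, so the shift of Gadd45b from -0.65 to -1.30 without Dock3 KO replicate 1 counts among the 136. The sign was kept in 12 of 18 alternatives for Gadd45g and for Hdac9, and in 15 for Runx1. It was kept in 16 for Dach2, 17 for Hdac4 and all 18 for Gadd45b. For Gadd45a and Ncam1 the choice of the genes fixes the sign. Dock3 KO replicates 1 and 2 had the fewest reads, so low genes such as Chrng are least precise there.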

Other observations

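Marker lists of further cells in the muscle were summed in each sample, since Runx1, Gadd45b and Hdac9 are also made by blood and vessel cells. The sum of 8 macrophage markers was 4253 to 4672 normalized counts in WT and 3808 to 4267 in Dock3 KO, 88.4% of the WT mean (exact two-sided permutation p = 0.2). The sum of 4 endothelial markers was 3559 to 4744 in WT and 3452 to 4287 in Dock3 KO (exact two-sided permutation p = 0.6). The sum of 4 fibro-adipogenic progenitor markers was 21003 to 25430.2 in WT and 16871 to 23731 in Dock3 KO (exact two-sided permutation p = 0.4). The sum of 8 muscle fibre markers was 1567090 to 1946180 in WT and 1642900 to 2011440 in Dock3 KO (exact two-sided permutation p = 0.6). Lymphocyte markers were near the limit of detection: 1 of 8 had a mean of at least 10, and their sum was 18.4 to 24.5 in WT and 13.6 to 49.1 in Dock3 KO (exact two-sided permutation p = 0.8). Groups overlapped for all of these sums.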
